A study of Mus musculus with 96 samples.

Results

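RNA of inguinal white adipose tissue (iWAT), a subcutaneous fat depot of the mouse, was compared between Ucp1-KO and wild-type mice kept at 30 °C on the control diet. The comparison took every library that the labels give this tissue, diet and temperature, 8 of Ucp1-KO mice (numbered 73 to 80) and 8 of wild-type mice (65 to 72), 16 of the 96 libraries of the series. All mice were C57BL/6J males, and each inguinal library came from its own animal. The control diet gave 13% of energy as fat, the high fat diet 48%, and each regime lasted 4 weeks. Besides the groups compared, the study holds iWAT of both genotypes at 20 °C on the control diet and at 30 °C on the high fat diet, and interscapular brown fat of the same 6 groups of 8 animals. No label ties a brown fat library to an inguinal one, so the tests between depots take libraries as independent. Of the genes named below Adrb3, Ebf2, Mlxipl and Prdm16 were chosen after their values were seen. No label gives the age of the mice, says whether the genotypes were littermates, or says which piece of Ucp1 the KO allele lacks.

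UCP1 is the proton carrier of the inner mitochondrial membrane that lets brown and beige adipocytes turn fuel into heat. Inguinal fat is the depot in which beige adipocytes, cells with a brown-like program inside white fat, are best known to appear under cold or adrenergic stimulation. That program runs from the beta-adrenergic receptor through cAMP to genes for lipid release, fatty acid oxidation, respiration and refilling of the fat store. At thermoneutrality, close to 30 °C for a mouse, the demand for heat is low and the program is usually quiet. The comparison asks how loss of UCP1 changes inguinal fat when the cold is taken away.

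Levels are given in RPKM, a read count divided by transcript length and library depth. Differences are Ucp1-KO minus wild-type on the log2(RPKM + 1) scale with their SE, on which genes near or below 1 RPKM change by less than their fold. Adjusted p-values come from limma, with Benjamini-Hochberg adjustment over all genes tested and a threshold of 0.05. In bulk tissue, fewer cells of a type and less RNA per cell cannot be told apart. The 16 libraries held 10.95 to 15.46 M reads by the spacing of their low values, and 1 read on a transcript of 1 kb stood for 0.0647 to 0.0913 RPKM.

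Markers of the labelled tissue were high in all 16 libraries. Adipoq, the adipocyte hormone adiponectin, had a mean of 2030.3 ± 163 RPKM (SD, n = 8) in wild-type and 2211 ± 291 RPKM in Ucp1-KO fat (difference 0.12 ± 0.13, adjusted p = 0.519). Other cells were present too. Summed over 18 B cell and lymph node markers, wild-type libraries held 1091 to 2097 RPKM and Ucp1-KO libraries 106.4 to 1234 RPKM. The lowest of these was library 79 of the Ucp1-KO group, next to 687.2 RPKM in library 75. That library was also the lowest in the summed T and NK cell markers, at 40.38 RPKM, where wild-type libraries held 382.5 to 671.1. Summed skeletal muscle markers ran from 41.42 to 15340 RPKM in wild-type and from 48.26 to 10470 RPKM in Ucp1-KO libraries. In the wild-type group, libraries 67 and 72 stood apart by high Ucp1. Library 67 also held the highest summed muscle markers of all 16 libraries, at 15340 RPKM. Where leaving out 1 library ended the call of a named gene, this is said beside it.

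All 8 Ucp1-KO libraries had Ucp1 reads, and more of them than wild-type inguinal fat. Wild-type libraries 65 to 72 held, in turn, 16.3, 14.4, 78.2, 15.3, 6.53, 14.4, 4.66 and 117 RPKM of Ucp1. Ucp1-KO libraries 73 to 80 held 101, 55.9, 34.1, 124, 124, 79.2, 87.1 and 64.7 RPKM. The 6 other wild-type libraries were below every Ucp1-KO library, while libraries 67 and 72 lay within the Ucp1-KO range. The difference was 1.97 ± 0.54 (means 33.3 ± 41.2 and 83.8 ± 32.1 RPKM, adjusted p = 0.00984, limma). The 3 Ucp1 transcripts of the table all had reads in Ucp1-KO fat, with means of 65.2 to 83.8 RPKM. In brown fat at 30 °C the same genotype labels separated far more widely and the other way, with 8227 ± 577 RPKM in wild-type and 736 ± 168 RPKM in Ucp1-KO libraries. Since the missing piece of the gene is not given, the level in inguinal fat does not check the genotype, and Ucp1-KO below means the genotype that the labels state.

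The 4 promoters below are shown because their genes carry the main results, the thermogenic genes Ucp1, Dio2 and Gk (listed as Gyk in the table) and the lipogenic gene Fasn, which were all higher in Ucp1-KO inguinal fat. Each is a window of 300 bases over the gene start in the RefSeq sequences of GRCm38.p6 and reads along the strand of the gene. Capitals mark motif matches. In Ucp1 (chr8:83290098-83290397, plus strand) the short form of the cAMP response element, TGACG, begins 147 bases before the start. In Dio2 (chr12:90738989-90739288, minus strand) the full cAMP response element TGACGTCA begins 95 bases before it, and holds an overlapping TGACG on each strand. In Gk (chrX:85776770-85777069, minus strand) the E-box CACGTG begins 58 bases and a TGACG 4 bases before it. In Fasn (chr11:120824498-120824797, minus strand) CCAAT boxes begin 90, 62 and 59 bases before it, on the minus, plus and minus strand of the window.
Ucp1: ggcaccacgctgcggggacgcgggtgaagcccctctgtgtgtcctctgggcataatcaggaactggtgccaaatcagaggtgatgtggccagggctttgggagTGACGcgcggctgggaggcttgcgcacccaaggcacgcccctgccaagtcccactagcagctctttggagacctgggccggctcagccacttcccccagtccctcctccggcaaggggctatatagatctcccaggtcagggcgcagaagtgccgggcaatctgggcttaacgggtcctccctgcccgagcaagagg
Dio2: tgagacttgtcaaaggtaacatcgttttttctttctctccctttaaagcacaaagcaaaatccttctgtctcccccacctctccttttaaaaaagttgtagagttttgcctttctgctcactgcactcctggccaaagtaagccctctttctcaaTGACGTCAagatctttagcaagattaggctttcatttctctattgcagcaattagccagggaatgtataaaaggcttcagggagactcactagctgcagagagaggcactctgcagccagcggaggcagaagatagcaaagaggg
Gk: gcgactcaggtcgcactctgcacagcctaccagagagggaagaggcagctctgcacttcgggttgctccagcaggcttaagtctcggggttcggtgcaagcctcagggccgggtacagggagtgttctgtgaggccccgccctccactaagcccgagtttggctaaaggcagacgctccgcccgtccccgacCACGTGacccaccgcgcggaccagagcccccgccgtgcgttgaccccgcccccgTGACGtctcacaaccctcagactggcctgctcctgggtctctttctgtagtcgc
Fasn: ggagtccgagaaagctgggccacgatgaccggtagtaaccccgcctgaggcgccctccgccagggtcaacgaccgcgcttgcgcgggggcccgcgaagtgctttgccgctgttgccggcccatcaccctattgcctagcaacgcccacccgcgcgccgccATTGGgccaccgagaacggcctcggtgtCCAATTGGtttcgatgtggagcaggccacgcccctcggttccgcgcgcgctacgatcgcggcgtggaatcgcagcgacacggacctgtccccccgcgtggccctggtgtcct
Both strands of the windows were searched, and of all 32851 mouse promoters in the reference 20.8% held TGACG, 1.79% TGACGTCA, 7.15% CACGTG and 37.4% CCAAT. The sterol response element TCACNCCAC (1.24% of all promoters), the D-box TTATGTAA (0.938%) and the interferon, PPAR and glucocorticoid response elements (3.44%, 0.0396% and 0.475%) were searched too and had no match in these 4 windows. Of the thermogenic list, 25 members had a promoter in the reference. Among these 7 held TGACG (28%, against 23% of all genes) and 1 held TGACGTCA (4%, against 2.03%). Of 21 fatty acid synthesis genes 15 held CCAAT (71.4%, against 41.1%). These shares were not tested. A match describes the letters of the window and is no evidence that a factor binds there.

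Most listed genes of heat production, fatty acid synthesis and oxidation, and respiration were higher in Ucp1-KO inguinal fat. Of 17 B cell markers 13, of 26 macrophage markers 9 and of 27 matrix genes 10 were lower, and without library 79 these counts were 2, 1 and 7. Of 15897 genes tested 3781 passed (23.8%), with 1199 higher (7.54%) and 2582 lower (16.2%) in Ucp1-KO. The rises were fewer but larger. Among calls of at least 2-fold, 58 were higher and 16 lower, and the 2 groups did not overlap for 454 genes that were higher (2.86%) and 206 that were lower (1.3%). The median difference over all genes was −0.12. Calls that were higher made up 31.7%, against 68.3% under median-ratio scaling and 65.2% after quantile normalization, whose medians were −0.030 and −0.0089. Of the 1199 higher calls 1194 and 1128 held under those scalings, and of the 2582 lower calls 809 and 828. Without library 79 there were 985 higher and 1162 lower calls. Lists of genes below are read against 7.54% higher and 16.2% lower.

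Thermogenic genes were higher in 21 of 31 tested members of the list and lower in 1, with a median difference of 0.74, and the list does not hold Ucp1. For 10 of the 31 the groups did not overlap. Elovl3, which lengthens long fatty acids and marks active brown fat, ran from 0.966 to 7.66 RPKM (median 2.22) in wild-type and from 22.1 to 34.1 RPKM (median 30.3) in Ucp1-KO libraries. All 8 Ucp1-KO libraries were above all 8 wild-type ones, an 8.75-fold difference of means (2.98 ± 0.35, adjusted p = 9.8e-08, limma). Cidea, a lipid droplet protein of brown and beige adipocytes, ran from 18.5 to 72.9 RPKM (median 36.8) in wild-type and from 150 to 240 RPKM (median 181) in Ucp1-KO libraries, again with no overlap. Its difference was 2.28 ± 0.28 (adjusted p = 1.8e-07, limma).

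Dio2, the deiodinase that makes active thyroid hormone, was below 1.5 RPKM in 7 wild-type libraries and at 4.74 RPKM in library 72. In Ucp1-KO it ran from 3.94 to 15.5 RPKM (median 11.2), so only library 72 reached the Ucp1-KO range, and the difference was 2.20 ± 0.31 (adjusted p = 2.3e-06). Gyk, the glycerol kinase that returns glycerol to triglyceride, had medians of 3.55 and 23.4 RPKM, 4.73-fold apart in means (2.03 ± 0.24). Library 72 was its highest wild-type library, at 10.0 RPKM, just above the lowest Ucp1-KO library at 9.33 RPKM. Cpt1b, the muscle and brown fat form of the enzyme that loads fatty acids for mitochondrial import, had medians of 6.76 and 33.1 RPKM (1.84 ± 0.26). Its highest wild-type library was 67, at 19.7 RPKM, which also held the highest summed muscle markers.

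The rest of the thermogenic list followed with smaller values. Otop1, a proton channel, rose by 1.73 ± 0.20, from at most 2.12 RPKM in wild-type to at least 3.56 RPKM in Ucp1-KO. Plin5, which ties lipid droplets to mitochondria, rose by 1.69 ± 0.19 with ranges of 8.85 to 18.2 and 30.2 to 46.3 RPKM. The cytochrome oxidase subunits of heart, muscle and brown fat rose as well, Cox7a1 by 1.56 ± 0.31 and Cox8b by 1.29 ± 0.22. Pank1, which begins coenzyme A synthesis, rose by 1.14 ± 0.17, and Kcnk3, a potassium channel of brown adipocytes, by 0.98 ± 0.16, both without overlap of the groups. Slc27a2, a very long chain acyl-CoA synthetase, rose by 1.44 ± 0.41. Clstn3, chosen as one of the largest rises and not a member of the list, rose by 1.39 ± 0.17 and its groups did not overlap. The table does not tell the adipocyte isoform of this gene from its neuronal one.

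Receptors and transcription factors of the thermogenic list were mixed. The nuclear receptors Esrra and Esrrg, which drive mitochondrial genes, rose by 0.66 ± 0.13 and 0.52 ± 0.09, and Ppara, the receptor that senses fatty acids, by 0.74 ± 0.20. Ppargc1a, their coactivator, rose by 0.35 ± 0.13 (adjusted p = 0.0421, limma), with ranges of 1.48 to 2.28 RPKM in wild-type and 1.82 to 3.86 RPKM in Ucp1-KO libraries, and the call was lost in 11 of 16 settings that left out 1 library. Adrb1, the beta1-adrenergic receptor, rose by 0.82 ± 0.17. Adrb3, the main beta-receptor of rodent adipocytes, did not pass the test (−0.38 ± 0.20, adjusted p = 0.147). The transcription factors of brown fat identity Prdm16 (0.04 ± 0.13) and Ebf2 (−0.04 ± 0.10) did not pass, and their sign changed with the processing. Tmem26, a surface marker of beige adipocytes, was the member that fell, by −0.49 ± 0.18 at 1.12 ± 0.54 RPKM in Ucp1-KO, a call lost with both other scalings and in 9 of 16 settings that left out 1 library. Fabp3, a fatty acid carrier of brown fat, did not pass (0.48 ± 0.36, adjusted p = 0.32).

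**Figure D1:**
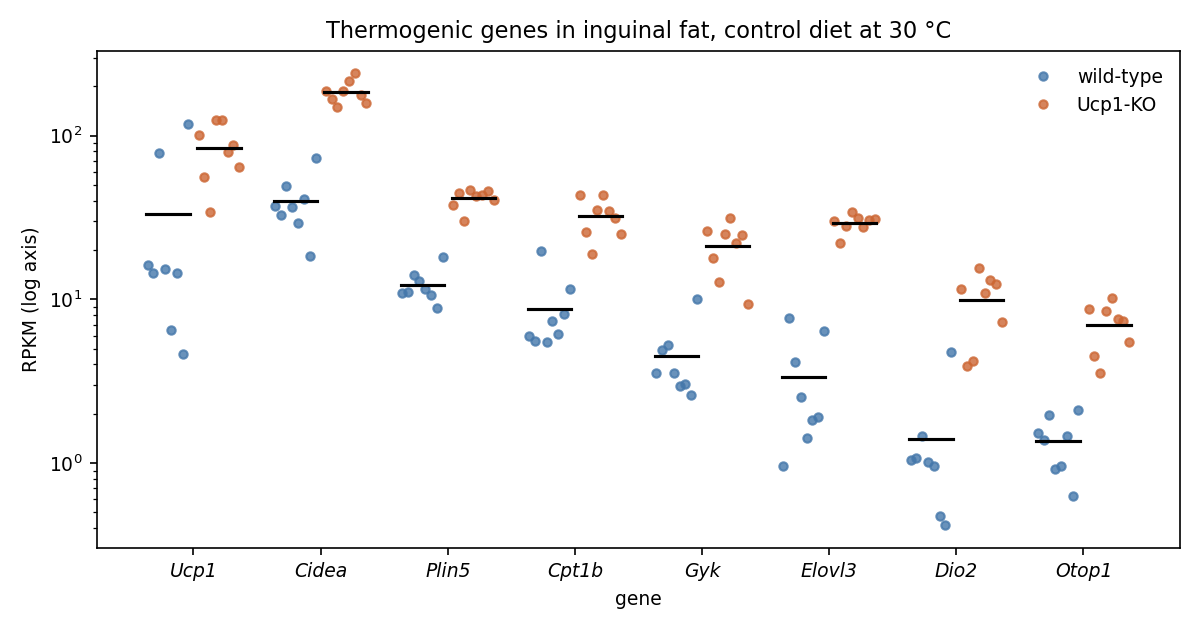
RPKM (log axis) of 8 thermogenic genes in each of the 16 inguinal libraries, with bars at the group means. For Cidea, Plin5, Elovl3 and Otop1 all 8 Ucp1-KO libraries lie above all 8 wild-type libraries, while for Ucp1 the wild-type libraries 67 (78.2 RPKM) and 72 (117 RPKM) lie among the Ucp1-KO libraries.

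Fatty acid synthesis genes were higher in 17 of 25 members and lower in 0, with a median difference of 0.75. Fasn, the fatty acid synthase, ran from 194 to 696 RPKM (median 370) in wild-type and from 525 to 1650 RPKM in Ucp1-KO libraries, a 2.94-fold difference of means (1.56 ± 0.30, adjusted p = 0.000198, limma). The groups overlapped through library 72, at 696 RPKM, and library 67, at 530 RPKM, against the lowest Ucp1-KO library at 525 RPKM. Elovl6, which lengthens palmitate, rose more, with medians of 11.0 and 58.5 RPKM (2.01 ± 0.30). Acly, which supplies acetyl-CoA in the cytosol, rose by 1.24 ± 0.26. Acaca, which makes malonyl-CoA, rose by 1.15 ± 0.22, Me1, a source of NADPH, by 1.36 ± 0.26, and Slc25a1, the citrate carrier, by 1.13 ± 0.21. Scd1, the stearoyl-CoA desaturase, rose by 0.85 ± 0.15 from an already high wild-type mean of 5180.1 ± 717 RPKM, and its groups did not overlap. Tkt, of the pentose phosphate pathway, rose by 1.00 ± 0.17.

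Srebf1, a transcription factor of lipogenesis, rose by 0.26 ± 0.10 (adjusted p = 0.0496, limma), a call lost in 13 of 16 settings that left out 1 library, and Mlxipl, which encodes the lipogenic factor ChREBP, differed by 0.28 ± 0.12 and did not pass (adjusted p = 0.0715). The count of synthesis genes that were higher was 12 without libraries 67, 72 and 79, and 11 with the summed B cell and muscle markers of each library as covariates. Of 19 cholesterol synthesis and uptake genes 4 were higher and 0 lower, among them Hmgcs1, which makes HMG-CoA (1.12 ± 0.14).

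The lists of triglyceride assembly and glycogen metabolism were added after the values were seen. Of 16 genes of triglyceride synthesis and glycerol supply 9 were higher and 1 lower, with a median of 0.40. This list shares genes with other lists, such as Gyk, Agpat2 and Acsl1. Agpat2, the acyltransferase whose loss causes lipodystrophy, ran from 191 to 445 RPKM in wild-type and from 483 to 908 RPKM in Ucp1-KO (1.34 ± 0.16, adjusted p = 1.7e-07). The glycerol phosphate dehydrogenases Gpd1 and Gpd2 rose by 0.97 ± 0.13 and 1.07 ± 0.14, and the acyltransferase Dgat1 by 0.70 ± 0.16. Glycogen metabolism had 5 of 18 members higher and 1 lower, with a median of 0.14. Gys2, the glycogen synthase best known from liver, rose from 4.51 ± 1.11 to 14.6 ± 4.16 RPKM (1.48 ± 0.20) and Ppp1r3b, which targets the glycogen phosphatase, by 1.31 ± 0.19, both without overlap.

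Mitochondrial fatty acid oxidation was higher almost throughout. Of 22 genes 20 were higher and 1 was lower, with a median of 0.78, and for 19 of the 20 the groups did not overlap. Acadvl, the first dehydrogenase for very long chains, ran from 68.8 to 94.0 RPKM in wild-type and from 121 to 180 RPKM in Ucp1-KO libraries (0.91 ± 0.13, adjusted p = 1.4e-06, limma). Hadha, of the trifunctional protein, rose by 0.82 ± 0.10, Acaa2, the last thiolase of the spiral, by 0.97 ± 0.13, and Etfdh, which passes the electrons on to ubiquinone, by 0.83 ± 0.10. Ehhadh, an enzyme of peroxisomal oxidation, rose by 1.33 ± 0.18, and Cpt2, the inner membrane carnitine transferase, by 0.58 ± 0.11. Acsl1, which activates long chain fatty acids, rose by 0.77 ± 0.11.

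The single gene of this list that was lower was Cpt1a, the liver form of carnitine palmitoyltransferase 1. It ran from 23.1 to 26.2 RPKM in wild-type and from 11.8 to 20.5 RPKM in Ucp1-KO libraries, with no overlap (−0.51 ± 0.13, adjusted p = 0.00564, limma). Its muscle and brown fat counterpart Cpt1b rose by 1.84, so the 2 isoforms moved in opposite directions. The fall of Cpt1a was not called with the B cell and muscle sums as covariates.

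Respiratory chain genes rose in all complexes. Of 45 nuclear genes of oxidative phosphorylation 44 were higher and 0 lower, with a median of 0.61, and for 43 of them the groups did not overlap. By complex, 18 of 18 tested subunits of complex I were higher (median 0.57), 4 of 4 of complex II (0.64), 7 of 7 of complex III (0.80), 7 of 8 of complex IV (0.72) and 7 of 7 of the ATP synthase (0.53). Uqcrq, a complex III subunit, ran from 142 to 199 RPKM in wild-type and from 257 to 382 RPKM in Ucp1-KO libraries (0.92 ± 0.12, adjusted p = 3.4e-07, limma). Ndufv1 of complex I rose by 0.67 ± 0.10, Sdha of complex II by 0.62 ± 0.09, Cox6a1 of complex IV by 0.76 ± 0.10 and Atp5b of the ATP synthase by 0.62 ± 0.11. Counts of at least 40 of 45 held in every setting tried, from both other scalings to the covariates. Genes of the mitochondrial genome were higher in 6 of 7 members, COX1 by 0.58 ± 0.14, but in 2 with quantile normalization, 3 without libraries 67, 72 and 79, and 0 with the covariates or without the filter on low values.

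The citric acid cycle and the entry of pyruvate into it, a list added after the values were seen, were higher in 21 of 23 members and lower in 0 (median 0.70), and for 21 the groups did not overlap. The list shares Sdha and Sdhb with that of oxidative phosphorylation and Pdha1 with that of glycolysis. Mpc1, which encodes a subunit of the mitochondrial pyruvate carrier, ran from 51.5 to 88.4 RPKM in wild-type and from 112 to 193 RPKM in Ucp1-KO libraries, with no overlap (1.13 ± 0.14, adjusted p = 2.2e-07, limma). Its partner Mpc2 rose by 1.05 ± 0.14, the pyruvate dehydrogenase genes Pdhb and Pdha1 by 1.07 ± 0.13 and 0.89 ± 0.12, and Fh1, the fumarase, by 0.56 ± 0.09. Pdk4, the kinase that shuts pyruvate dehydrogenase, rose too, by 1.08 ± 0.22.

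Glycolysis and other metabolic groups were mixed. Of 22 genes of glucose uptake and glycolysis 12 were higher and 2 lower, with Eno1, the enolase, at 1.00 ± 0.13, Ldhb, a lactate dehydrogenase, at 0.98 ± 0.13 and Hk2, a hexokinase, at 0.54 ± 0.14. Slc2a1, the basal glucose transporter, fell by −0.32 ± 0.07. Branched-chain amino acid breakdown had 8 of 18 genes higher and 0 lower (1 with the covariates). Redox and heme genes had 8 of 24 higher and 0 lower, with Sod2, the mitochondrial superoxide dismutase, at 0.76 ± 0.12. Creatine and calcium cycling, which can make heat without UCP1, had 1 of 11 higher and 1 lower (median −0.16).

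Adrenergic signalling and lipid handling were higher in part. In the list of adrenergic and cAMP genes, added after the values were seen, 9 of 22 were higher and 2 lower. The list shares Dio2, Adrb1 and Ppargc1a with the thermogenic list, so the 2 counts are not separate. Adcy3, an adenylyl cyclase, rose by 1.12 ± 0.15, with medians of 16.3 and 35.9 RPKM, and Pde4d, which breaks cAMP down, by 0.69 ± 0.15. Prkaca, the catalytic subunit of protein kinase A, rose by 0.52 ± 0.15. It lies among the 40 tested genes nearest to Ucp1, and the limit given below for those genes holds for it. Lipid uptake and lipolysis had 7 of 20 genes higher and 0 lower, and 4 without library 79. Plin2, a lipid droplet coat protein, rose by 1.11 ± 0.15 and G0s2, the inhibitor of the lipase ATGL, by 0.97 ± 0.15, both without overlap. Pnpla2, which encodes ATGL, rose by 0.30 ± 0.11 (adjusted p = 0.0439, limma), a call lost in 12 of 16 settings that left out 1 library.

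Adipocyte genes and stress pathways were mostly without calls. Of 19 adipocyte genes and adipokines 4 were higher (21.1%) and 0 lower, with Adig, adipogenin, at 0.65 ± 0.13. Without library 79, 1 of the 19 was higher. Lep, which encodes leptin, had medians of 114 RPKM in wild-type and 62.8 RPKM in Ucp1-KO libraries and did not pass (−0.72 ± 0.41, adjusted p = 0.176, limma). The integrated stress response had 3 of 27 genes higher and 2 lower. Atf5, a factor of that response, rose by 0.47 ± 0.14 and Asns, asparagine synthetase, by 0.41 ± 0.13, while Stc2 and Pck2 fell by −0.62 ± 0.19 and −0.25 ± 0.08. Stc2 and Pck2 lost their calls with both other scalings, and Pck2 also without library 79 (−0.25, adjusted p = 0.0523, limma). Leaving out library 68 or 73 ended the call of Pck2 too. The hormone gene Gdf15 rose by 0.60 ± 0.22 from 0.928 ± 0.531 to 2.07 ± 1.27 RPKM (adjusted p = 0.0407), a call lost in 9 of 16 settings that left out 1 library. Fgf21 was at 0.153 ± 0.090 and 0.559 ± 0.297 RPKM and did not pass (0.41 ± 0.23, adjusted p = 0.167). The unfolded protein response had 1 of 18 genes higher and 4 lower, the circadian clock 1 of 17 higher and 0 lower, immediate early and glucocorticoid genes 1 of 20 higher and 1 lower, acute phase and complement genes 1 of 18 higher and 3 lower, and ribosomal proteins 0 of 28 higher and 3 lower.

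**Figure D2:**
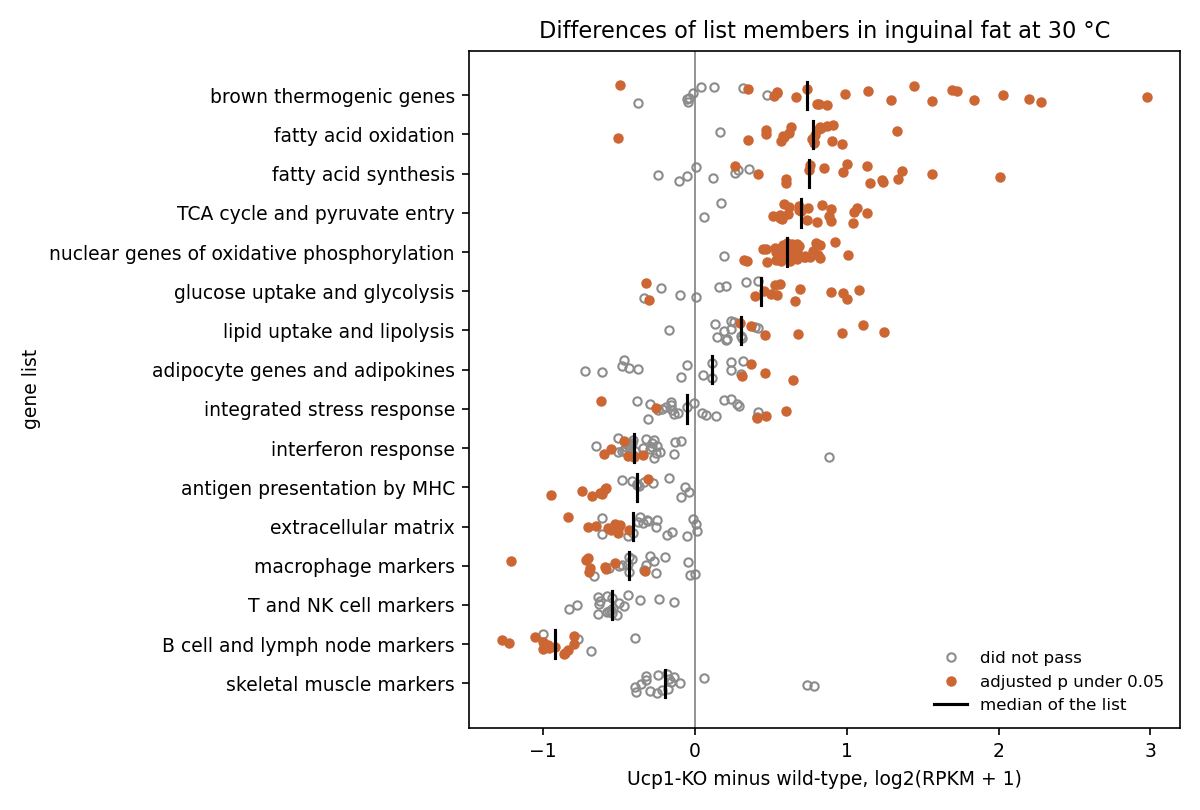
Difference of Ucp1-KO minus wild-type, in log2(RPKM + 1), for each tested member of 16 gene lists, with filled points where the adjusted p was under 0.05 and bars at the list medians. Of the 45 oxidative phosphorylation genes 44 were called higher, and of the 17 B cell and lymph node markers 13 were called lower.

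B cell and lymph node genes were among the largest falls. Of 17 markers 13 were lower and 0 higher, with a median of −0.92. Ms4a1, which encodes CD20, ran from 35.9 to 61.6 RPKM (median 46.0) in wild-type and from 2.05 to 46.6 RPKM (median 27.5) in Ucp1-KO libraries (−1.06 ± 0.35, adjusted p = 0.0287, limma). Library 79 was the lowest, at 2.05 RPKM, and the next Ucp1-KO library was at 21.7 RPKM. Without library 79 the difference of Ms4a1 was −0.64 (adjusted p = 0.108, limma). Its call was also lost without library 65. Ighm, the IgM heavy chain, had medians of 497 and 264 RPKM (−1.27 ± 0.35), Cr2, a complement receptor of B cells and follicular dendritic cells, differed by −0.97 ± 0.28, and Cxcl13, the B cell chemokine of follicles, by −0.80 ± 0.28. The call of Cxcl13 was lost in 7 of 16 settings that left out 1 library, with −0.65 without library 79 and −0.79 without library 72. Marco (−1.31 ± 0.37), Timd4 (−1.31 ± 0.35) and Cd209b (−1.13 ± 0.31), receptors known from resident macrophages, were among the largest falls too. Summed B cell markers had medians of 1280 RPKM in wild-type and 707.4 RPKM in Ucp1-KO libraries, and 1 member, Ccl21a, was at 0 in all 16. The count of B cell markers that were lower was 2 without library 79, 0 without libraries 67, 72 and 79, 6 under median-ratio scaling and 12 after quantile normalization. Whether lymph node tissue taken along with the depot sets these values was not tested.

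Of 26 macrophage markers 9 were lower and 0 higher (median −0.44). Csf1r, the receptor for the macrophage growth factor, had medians of 84.6 and 52.1 RPKM (−0.58 ± 0.19), Cd68, a lysosomal marker, differed by −0.70 ± 0.24 and Mpeg1, perforin-2, by −0.70 ± 0.21. Without library 79 the calls of Csf1r (−0.52), Cd68 (−0.61) and Mpeg1 (−0.51) were lost, and that of Cd68 also without library 72 (−0.63). In all, Cd68 lost its call in 6 and Csf1r in 3 of 16 settings that left out 1 library. Lyz1, a lysozyme, ran from 51.1 to 87.8 RPKM in wild-type and from 9.44 to 45.1 RPKM in Ucp1-KO libraries, without overlap (−1.22 ± 0.25, adjusted p = 0.000572, limma). Lyz1 and its close paralog Lyz2 can share reads, so the value of each is uncertain. Summed macrophage markers ran from 1245 to 2045 RPKM in wild-type and from 634.3 to 1571 RPKM in Ucp1-KO, with library 79 the lowest. Without library 79 the count of macrophage markers was 1, and with median-ratio scaling it was 3.

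Of 19 genes of antigen presentation by MHC 8 were lower and 0 higher. Cd74, the invariant chain of class II, ran from 1116 to 1598 RPKM in wild-type and from 351 to 1236 RPKM in Ucp1-KO libraries (−0.68 ± 0.20, adjusted p = 0.0166). H2-Ab1, a class II chain, differed by −0.63 ± 0.18. Without library 79 they differed by −0.51 and −0.48 and neither passed. The class I genes H2-D1 (−0.04 ± 0.08) and B2m (−0.09 ± 0.08) did not pass. No gene of this list passed without library 79. T and NK cell markers had 0 of 20 calls by limma (median −0.55), and 6 had an unadjusted p under 0.05. There were 0 calls with both other scalings too, 1 lower with array weights or with transcripts summed, and up to 2 lower with 1 library left out.

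The extracellular matrix was lower in 10 of 27 genes and higher in 0 (median −0.41). Tnc, tenascin C, had medians of 11.6 and 6.12 RPKM (−0.83 ± 0.22, adjusted p = 0.00786, limma), Col6a3, a collagen VI chain, differed by −0.70 ± 0.17, and Fbn1, fibrillin, by −0.65 ± 0.22. Col3a1 differed by −0.51 ± 0.19, a call lost in 9 of 16 settings that left out 1 library. Fbn1 lost its call in 4 of them, with −0.63 without library 79 and −0.51 without library 72. Matrix counts were 7 without library 79, 10 with quantile normalization, 2 with median-ratio scaling and 0 with the covariates. Of 16 progenitor and fibroblast markers 5 were lower and 1 was higher. The lower count was 2 without library 79, 1 under median-ratio scaling and 0 with the covariates. Cd34, of progenitors and vessels, differed by −0.45 ± 0.15 and Pdgfra by −0.41 ± 0.15. These calls were lost in 5 and 11 of 16 settings that left out 1 library, Cd34 without 67 (−0.41) or 72 (−0.42), and Pdgfra without 67 (−0.38), 72 (−0.43) or 79 (−0.41). F3, known from progenitors that restrain adipogenesis, rose by 0.45 ± 0.11. Proliferation genes were lower in 6 of 19, with Bub1b, a mitotic checkpoint kinase, at −0.51 ± 0.15, and in 1 without library 79.

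Of 33 interferon response genes 6 were lower (18.2%, near the 16.2% of all genes) and 0 higher (median −0.40). Without library 79, 3 were lower, median-ratio scaling gave 2 lower and 1 higher, and quantile normalization 3 and 1. Gbp3, a guanylate binding protein, differed by −0.60 ± 0.14 and Cxcl9, a chemokine, by −0.40 ± 0.10. Cxcl10, its relative, had medians of 5.56 and 11.7 RPKM in the other direction and did not pass (0.89 ± 0.35, adjusted p = 0.0569, limma). Of 16 endothelial markers 2 were lower and 1 was higher, the epithelial and skin markers were higher in 1 of 11, and the skeletal muscle, Schwann and nerve, and erythroid lists had 0 calls of 18, 11 and 5 by limma, with an unadjusted p under 0.05 for 0, 1 and 0 genes.

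**Figure D3:**
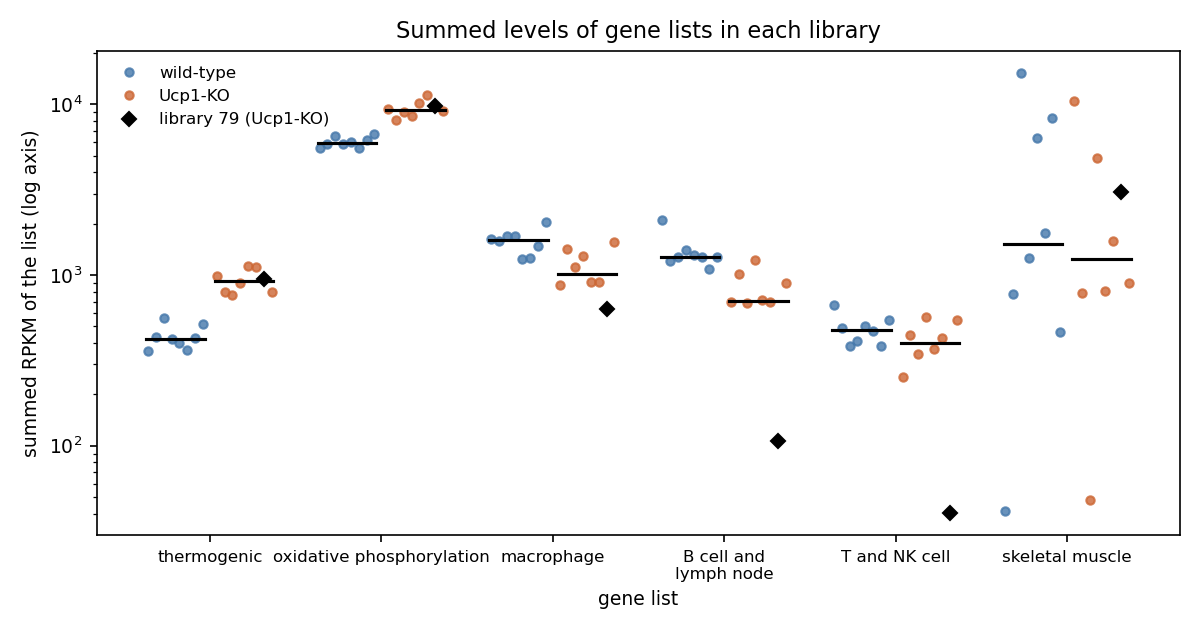
Summed RPKM (log axis) of 6 gene lists in each of the 16 inguinal libraries, with bars at the group medians and library 79 of the Ucp1-KO group as a black diamond. The thermogenic sums of the Ucp1-KO libraries (766.7 to 1138 RPKM) lie above those of the wild-type libraries (357.6 to 562.4 RPKM), library 79 included, while in the B cell and T and NK cell sums library 79 is the lowest of all 16.

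Summed thermogenic markers ran from 766.7 to 1138 RPKM in Ucp1-KO and from 357.6 to 562.4 RPKM in wild-type libraries, and library 79 lay within the Ucp1-KO range. Oxidative phosphorylation sums likewise ran from 8104 to 11360 and from 5577 to 6717 RPKM. Without library 79, 20 of 31 thermogenic and 44 of 45 oxidative phosphorylation genes were higher. With the B cell and muscle sums as covariates 18 and 40 were, and 15 of 22 fatty acid oxidation genes.

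Mri1, an enzyme of methionine salvage on the chromosome of Ucp1, had the smallest p of all genes named. It ran from 8.69 to 13.7 RPKM in wild-type and from 3.81 to 5.27 RPKM in Ucp1-KO libraries, with no overlap (−1.01 ± 0.08, adjusted p = 9.3e-12, limma). Among the 40 tested genes nearest to Ucp1, 20 on each side in the reference gene order, 4 were higher (10%) and 8 lower (20%), near the shares of all genes, and for 1 and 2 of these the groups did not overlap. Scoc, the second tested gene after Ucp1, ran from 5.54 to 6.50 RPKM in wild-type and from 2.13 to 3.11 RPKM in Ucp1-KO libraries (−0.95 ± 0.11, adjusted p = 9.8e-08). Rnf150, on the other side, differed by −0.49 ± 0.08 and Usp38 by 0.36 ± 0.07, both without overlap. Il15 (−0.55 ± 0.14) and Tbc1d9 (−0.59 ± 0.13), between Usp38 and Ucp1, were lower with overlapping groups, and were higher in Ucp1-KO brown fat, by 0.45 and 0.64. Prkaca, at place 14 after Ucp1, was among the 4 that were higher (0.52 ± 0.15), with overlapping groups, and did not pass in brown fat (−0.08). Scoc (−1.39), Rnf150 (−0.85) and Usp38 (0.93) kept their direction in brown fat, where Mri1 did not pass (−0.01, adjusted p = 0.932, limma). In inguinal fat on high fat diet Scoc (−1.20), Usp38 (0.52) and Mri1 (−0.70) passed, while Rnf150 (−0.24), Il15 (−0.29) and Tbc1d9 (0.11) did not. A changed region around the KO allele and an effect of lost UCP1 cannot be told apart for these genes.

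More genes differed between the genotypes in the cooler mice. At 20 °C, in 16 other inguinal libraries, 1566 genes were higher (9.85%) and 8739 lower (55%) in Ucp1-KO. With median-ratio scaling these numbers were 4227 and 3534. Of the genes that were higher at 30 °C 806 were higher at 20 °C, 67.2% of the former list and 51.5% of the latter, and 26 were lower. Of those that were lower at 30 °C 2329 were lower at 20 °C, 90.2% and 26.7% of the lists, and 3 were higher. Thermogenic genes were higher in 24 of 31 at 20 °C, with a median of 1.53 against 0.74 at 30 °C, while fatty acid synthesis had a median of 0.63 against 0.75. Wild-type inguinal fat itself held 133 ± 96.7 RPKM of Ucp1 at 20 °C, and Ucp1-KO fat 306 ± 128 RPKM.

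The test of the difference between both temperatures called 1768 genes positive (11.1%) and 342 negative (2.15%), where negative means a smaller or more negative genotype difference at 30 °C. The median was 0.16, and positive calls made up 83.8%, against 15.9% and 27.5% after median-ratio and quantile scaling (medians −0.022 and 0.011). Of 31 thermogenic genes 8 were negative and 0 positive. Acot2, a mitochondrial acyl-CoA thioesterase, rose by 0.80 ± 0.13 at 30 °C and 2.35 ± 0.13 at 20 °C (interaction −1.55 ± 0.19, adjusted p = 5.6e-07, limma). Ppargc1a rose by 0.35 at 30 °C and 1.53 at 20 °C (−1.19 ± 0.18), and Fabp3 by 3.08 at 20 °C (−2.61 ± 0.51). Fgf21 and Gdf15 rose by 1.77 and 1.68 at 20 °C, with interactions of −1.36 ± 0.32 and −1.08 ± 0.31. For Elovl3 (−1.09 ± 0.50, adjusted p = 0.136), Cidea (0.32 ± 0.40, adjusted p = 0.612) and Plin5 (−0.03 ± 0.26, adjusted p = 0.94) a difference between the temperatures did not pass. Adipoq, which did not pass at 30 °C, differed by −0.53 ± 0.13 at 20 °C (interaction 0.64 ± 0.18). Antigen presentation had 8 positive interactions of 19, with H2-D1 at 0.72 ± 0.12.

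On the high fat diet at 30 °C little of the difference was seen. Of all genes 31 were higher (0.195%) and 14 lower (0.0881%) in Ucp1-KO, and 22 of the 31 were among the 1199 that were higher on the control diet. Ucp1 was at 15.3 ± 11.6 and 12.9 ± 7.93 RPKM. The test between the diets was positive for 196 genes (1.23%) and negative for 16 (0.101%). Positive interactions were found for 23 of 45 oxidative phosphorylation genes, 10 of 23 genes of the citric acid cycle, 9 of 25 of fatty acid synthesis and 6 each of 31 thermogenic and 22 fatty acid oxidation genes. Elovl3 differed by 0.78 on high fat and 2.98 on control diet (interaction 2.20 ± 0.50, adjusted p = 0.0147, limma). Elovl6 (2.23 ± 0.42), Fasn (1.74 ± 0.42), Mpc1 (1.15 ± 0.20), Eno1 (1.09 ± 0.18), Acaa2 (1.07 ± 0.18) and Uqcrq (1.04 ± 0.17) passed the same test. Some genes were higher on both diets. Acsl1 rose by 0.76 on high fat and 0.77 on control diet, Hmgcs1 by 1.00 and 1.12, Plin5 by 0.87 and 1.69 and Clstn3 by 0.85 and 1.39, and their interactions did not pass. Ms4a1 differed by −0.14 ± 0.35 on high fat diet, and its interaction of −0.91 ± 0.50 did not pass (adjusted p = 0.341, limma). With array weights limma called 2630 genes on high fat diet.

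**Figure D4:**
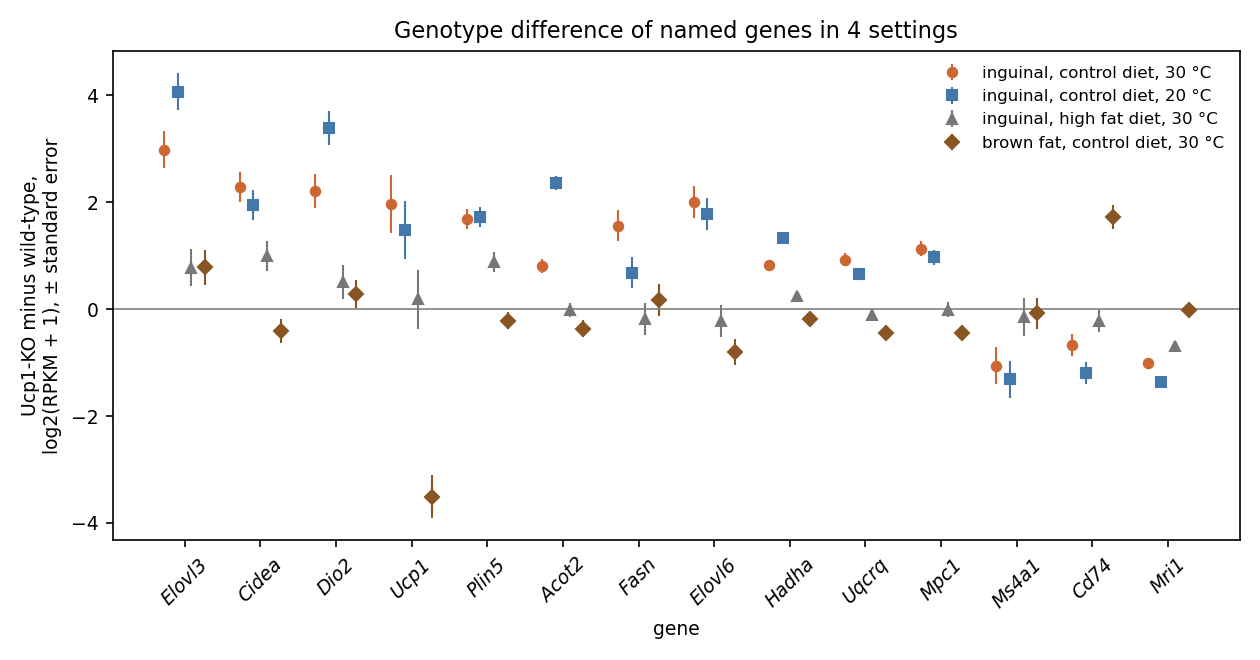
Difference of Ucp1-KO minus wild-type (log2(RPKM + 1), bars are SE from limma) of 14 genes in 4 settings, 3 of them inguinal fat and 1 brown fat. In inguinal fat Elovl3 differs by 2.98 at 30 °C, by 4.07 in the cooler mice and by 0.78 under high fat feeding, and Ucp1 by −3.51 in brown fat.

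Brown fat of the same genotypes, diet and temperature changed the other way for several of these groups. In the fit of all 96 libraries, with 16310 genes, 8238 genes were higher (50.5%) and 1577 lower (9.67%) in Ucp1-KO brown fat. Of the 1199 genes that were higher in inguinal fat, 248 were higher and 423 lower in brown fat, 20.7% and 35.3% of that list and 3.05% and 27.9% of the calls there among genes tested in both fits. Of the 2582 that were lower in inguinal fat 1839 were higher in brown fat, 71.2% of that list and 22.6% of the calls there, and 60 were lower. The test between the depots set the genotype difference of inguinal fat against that of brown fat. It was positive, meaning a more positive difference in inguinal fat, for 1699 genes (10.4%) and negative for 8593 (52.7%). Its median was −0.36. Positive calls were 16.5%, against 49% and 57.1% after median-ratio and quantile scaling (medians −0.047 and 0.036).

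Thermogenic genes had positive depot interactions in 23 of 32 members and negative ones in 2, oxidative phosphorylation in 43 of 45, fatty acid oxidation in 20 of 22 with 1 negative, and the mitochondrial genome in 7 of 7. In brown fat itself 15 of 32 thermogenic, 32 of 45 oxidative phosphorylation and 15 of 22 fatty acid oxidation genes were lower in Ucp1-KO, and 5, 1 and 1 were higher. Other groups were mixed there. Fatty acid synthesis had 5 of 25 genes higher and 7 lower (median 0.04), triglyceride synthesis 4 and 4 of 16, and glycolysis 4 and 7 of 22. Otop1 rose by 1.73 in inguinal and fell by 1.10 in brown fat (interaction 2.82 ± 0.24, adjusted p = 4.1e-17, limma), and Pank1 rose by 1.14 and fell by 1.24 (2.38 ± 0.20). Elovl3 was higher in both depots, by 0.78 in brown fat (interaction 2.20 ± 0.46). Plin2 rose by 1.11 in inguinal and 1.10 in brown fat, and its interaction of 0.01 ± 0.20 did not pass.

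Most listed genes of antigen presentation, the interferon response and macrophages were higher in Ucp1-KO brown fat. B cell and lymph node markers were higher there in 6 of 17 (35.3%, against 50.5% of all genes) and lower in 0. Ms4a1 did not pass in brown fat (−0.07). Antigen presentation had 19 of 19 negative interactions, the interferon response 33 of 33 and macrophage markers 25 of 26. In brown fat Cd74 rose by 1.73 and Mpeg1 by 3.44, and Cxcl10 by 3.74, against −0.68, −0.70 and 0.89 in inguinal fat. Gpnmb, a glycoprotein of lipid-laden macrophages, rose by 4.67 in brown fat and did not pass in inguinal fat (−0.32 ± 0.29, adjusted p = 0.413, limma). Lgals3, a lectin of the same cells, rose by 4.22 in brown fat and was at 115 ± 32.8 and 111 ± 31.0 RPKM in inguinal fat.

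**Figure D5:**
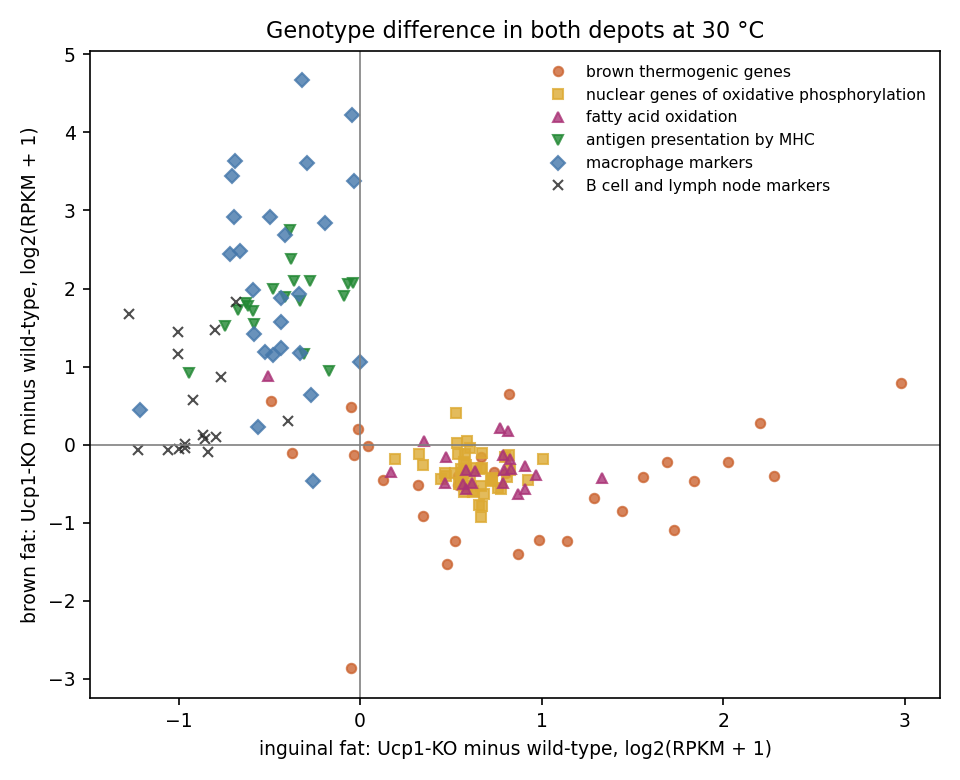
Difference of Ucp1-KO minus wild-type in inguinal fat (x axis) and brown fat (y axis) at 30 °C on control diet, both in log2(RPKM + 1), for members of 6 gene lists, Ucp1 left out. Most oxidative phosphorylation and fatty acid oxidation genes lie right of 0 and below 0, and antigen presentation and macrophage genes lie left of 0 and mostly above it.

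For 4 single genes that limma did not call, an exact two-sided permutation test of the difference of means (12870 arrangements of 8 against 8 libraries) gave an unadjusted p under 0.05. It was 0.00311 for Fgf21, 0.0126 for Lep, 0.0258 for Mlxipl and 0.0281 for Cxcl10, where the smallest p possible is 0.000155. Calls by limma rest on p-values adjusted over all genes tested, so the thresholds of the tests differ.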

How the data were processed

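The authors deposited a table of 168326 transcript rows with an RPKM value in each of 96 libraries, from stranded mRNA libraries, per the labels' protocols. CASAVA and bcl2fastq are named in the submitters' processing notes without versions, while aligner, counter and build were not given in the sources used here. No header states the unit, and the values behave as RPKM, since low values were whole multiples of a step set by transcript and library: with a tolerance of 0.05 read, 95.05% to 95.53% of values of up to 20 reads came out whole in the 16 libraries compared, which gave 10.95 to 15.46 M reads each (median 12.73). Since depth came from these steps, it is an estimate.

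For each of 29072 gene symbols with an Entrez identifier the transcript of highest mean stood for the gene. Rows without such an identifier (13.76% of rows, 9.852% of summed RPKM) were left out. Genes reaching 0.5 RPKM in 8 or more libraries entered the test, limma 3.58.1 (R 4.3.3) on log2(RPKM + 1), fitted over the 48 inguinal libraries in 6 groups, or all 96 in 12 groups for brown fat and the test between depots. The steps were tested on simulated data. Correlations between inguinal libraries ran from 0.9260 to 0.9961.

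Named were Ucp1, the 15 largest rises and 15 largest falls with at least 5 RPKM in the higher group, from each list the 5 members of smallest p and those that passed, the 6 genes with the smallest p in each direction of each interaction, called genes next to Ucp1, and a fixed set; 1 gene that this rule names is not reported here. Genes and lists were chosen with earlier results of these data known. Some genes belong to several lists, so the counts of lists are not separate. The lists of citric acid cycle, triglyceride, glycogen and adrenergic genes were added after the values were seen. Alternatives were other pseudocounts, filters and scalings, the sum of transcripts, the 16 libraries alone, array weights and each library left out. Leaving out libraries 67, 72 and 79 together or in part, and the B cell and muscle sums as covariates, were chosen after seeing the data.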

Additional observations from a re-analysis of the deposited data

Results flagged for a closer look

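In 24 of 256 groups of 8 libraries, 1 library stood apart by the gap to its neighbour over the range of the group (Dixon's test), where chance gives about 1 in 20 groups. Library 79 gave 0 of them, yet it held the lowest summed B cell markers, at 106.4 RPKM next to 687.2 RPKM in library 75. Leaving out library 79 gave 1162 lower calls, against 2582 with it. The absence of a flag therefore does not show that library 79 was like the others. Wild-type library 72 was the highest for Dio2 (gap over range 0.758), Gyk (0.642), Esrrg (0.53), Agpat2 (0.698), Hadha (0.596), Etfdh (0.731), Ehhadh (0.54), G0s2 (0.639), Adcy3 (0.727), Hmgcs1 (0.794) and Tnc (0.666). Wild-type library 67 was the highest for Cpt1b (0.568), Cox7a1 (0.628) and Cox8b (0.565). Wild-type library 65 was the highest for Ighm (0.663), Mri1 (0.574) and the summed B cell markers (0.694), and library 68 for Cxcl13 (0.667). Among Ucp1-KO libraries, 77 was the highest for Slc27a2 (0.529), 73 for Pde4d (0.682) and the summed muscle markers (0.541), and 80 for Cd34 (0.672), while 76 was the lowest for Mlxipl (0.53) and Rnf150 (0.7).

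The genotype difference of 2110 genes differed between 30 and 20 °C by limma's interaction test. Positive, in log2 units, were Atp5g3 (0.92), P4hb (0.65), Dgkd (0.53) and H2-D1 (0.72), and negative were Zfp652 (−1.82), Acot2 (−1.55), Dhrs9 (−2.08) and Scd3 (−2.37). It differed between the diets for 212 genes, with Uqcrq (1.04), Slc25a17 (0.66), Eno1 (1.09), Acaa2 (1.07), Impdh1 (0.72) and Mpc1 (1.15) positive and Anp32b (−0.46) and Scaper (−0.41) negative. It differed between the depots for 10292 genes, with Suox (1.44), Otop1 (2.82), Fh1 (1.46), Ndufv1 (1.60) and Pank1 (2.38) positive and H2-D1 (−2.11), B2m (−1.99), Cfb (−3.34) and Lgals3 (−4.26) negative.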

How the results depend on the processing

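Counts of genes that were higher in Ucp1-KO inguinal fat at 30 °C moved less than counts of genes that were lower. The lower count of 2582 was 809 under median-ratio scaling, 918 after quantile normalization, 3931 with array weights and 1553 without libraries 67 and 72. Without libraries 67, 72 and 79 there were 1633 calls, 722 of them lower. With the B cell and muscle sums as covariates there were 696, with 461 higher and 235 lower. Leaving out 1 library gave 2147 (without 79) to 4423 (without 76) calls, 970 to 1282 higher and 1162 to 3222 lower. At 20 °C median-ratio scaling gave 4227 higher and 3534 lower, and quantile normalization 3690 and 3567. On high fat diet the lower count was 6 with a pseudocount of 0.1 and 7 with median-ratio scaling, quantile normalization called 71 (63 higher, 8 lower), and array weights called 2630 (942 higher, 1688 lower). The temperature test gave 1397 calls (222 positive, 1175 negative) under median-ratio scaling, 870 (239 and 631) after quantile normalization and 3614 (3154 positive) with array weights, and 1491 to 2865 (1208 to 2507 positive, 283 to 370 negative) with 1 library left out. The diet test gave 346 (316 and 30) with quantile normalization and 4706 (1671 and 3035) with array weights, and 110 to 322 (102 to 287 positive, 5 to 37 negative) with 1 library left out. The depot test gave 4237 positive and 4415 negative calls under median-ratio scaling, 4723 and 3554 after quantile normalization, and 9977 to 10328 (1627 to 1726 positive, 8315 to 8641 negative) with 1 library left out. The cause of these moves was not tested. Prdm16 changed sign with transcripts summed (−0.00027), array weights (−0.0044), libraries 67, 72 and 79 left out (−0.022), the covariates (−0.11) and library 67 left out (−0.010), and ran up to 0.11 with 1 library left out. Ebf2 did so under median-ratio scaling (0.068), after quantile normalization (0.083) and library 76 left out (0.029), and ran down to −0.076 with 1 library left out. With the covariates Adipoq was at −0.11, Gpnmb at 0.021 and Ms4a1, a member of the B cell sum itself, at 0.097. Of 106 called genes of the text, 64 kept their call with the covariates, 80 without libraries 67, 72 and 79, 89 without library 79, 97 after quantile and 95 after median-ratio scaling. No paired analysis was possible because the numbers of the libraries run through the study and are not shared between groups. Depth limits genes near 1 RPKM, such as Fgf21.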
